A study of Homo sapiens with 4 samples.

Results

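The exportins are 7 human genes for nuclear export receptors: XPO1, XPO4, XPO5, XPO6, XPO7, XPOT and CSE1L. They were taken by symbol from 25688 genes in 4 deposited expression tables. All 7 were among the 9934 genes tested, those that reached an FPKM of 1 in 2 or more libraries. FPKM counts mapped fragments relative to transcript length and library depth. The family was chosen by its best-known RNA exporter, XPO5, whose FPKM had been seen to be higher in biotin than in control libraries. The differences of the exportins between these groups are therefore given as a description. Where exportins are counted among the calls of the fit over all genes, the count stands beside the share of all genes and supports nothing.

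An exportin binds its cargo in the nucleus together with the small GTPase Ran in its GTP form, passes through the nuclear pore and lets go of the cargo when Ran hydrolyses GTP in the cytoplasm. Export receptors and most import receptors belong to the same protein family, the importin-beta or karyopherin family. XPO5 carries the short hairpin precursors of microRNAs (miRNAs) from the nucleus to Dicer, so it belongs to the pathway that makes the kind of RNA used here as bait.

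The cells were DU-145, an established human prostate cancer line that grows without androgens. Control libraries (n = 2) came from cells given 60 nM of an untagged miR-26a duplex, ds-miR-26aCT. Biotin libraries (n = 2) came from cells given 60 nM of ds-miR-26aBIO, a mix of 2 duplexes in which miR-26a carried biotin at its 3′ end and a thiouridine at nucleotide 7 in one and 17 in the other. Lipofection followed seeding by 24 h, and on the next day both groups were irradiated at 365 nm with 2 J/cm2, which links thiouridine to nearby RNA. Total RNA was incubated with streptavidin beads for 4 h, and what the beads held was sequenced with a stranded total RNA kit in single reads of 50 bases. All 4 libraries thus came from cells with added miR-26a, and since thiouridine came only with biotin, their effects cannot be told apart. RNA from before the beads was not analysed here, so a higher level in the cell and a higher recovery on the beads cannot be told apart either. The series design calls the 2 libraries of a group biological replicates.

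The libraries held between 16030000 and 23640000 mapped reads, as estimated from deposited coverage and FPKM. Over all genes, 1307 of 9934 (13.2%) were called higher in biotin and 925 (9.31%) lower, 22.5% in either direction (limma, Benjamini-Hochberg adjusted p below 0.05). Increases were 58.6% of these calls, and 46.8% with upper-quartile scaling. The median difference over all tested genes was -0.06 on the log2 scale. Of 9 epithelial markers of DU-145, 8 were above 0, with a summed level of 244.6 to 295.5 FPKM per library, and 2 of the 8 were called higher in biotin. KRT5 and, from a list of luminal prostate markers, KLK3 and KLK2 were listed at 0 in every library. Summed markers of blood cells reached at most 0.0829 FPKM and those of fibroblasts at most 0.376 FPKM.

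The bait was the mature miRNA hsa-miR-26a-5p, shown with its seed, nucleotides 2 to 8, in capitals. Its sequence is that of RefSeq (GRCh38.p14), where a copy lies on chromosome 3 from 37969413 to 37969434 on the plus strand. Nucleotides 7 and 17, counted from the 5′ end, are both U.
hsa-miR-26a-5p: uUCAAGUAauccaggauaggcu

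XPO5 was present at 10.8 and 11.6 FPKM in the control libraries and at 52.4 and 59.3 FPKM in the biotin libraries. Both biotin values lay well above both controls, and the replicates of a group differed by at most 1.13-fold. The group means were 11.2 ± 0.502 and 55.8 ± 4.87 FPKM (± SD, n = 2), a ratio of 4.98. On the log2(FPKM + 1) scale the difference was 2.22 ± 0.18 (SE), and 129 of the 9934 tested genes (1.3%) had a larger one. The SE here and below is that of limma, which draws on the spread of all tested genes as well as that of the gene. The value came from 1 transcript row, NM_020750, of 5364 bases on chromosome 6 from 43522330 to 43576075 (hg38). An estimated 932, 1105, 4931 and 7515 reads lay behind the values of control replicates 1 and 2 and biotin replicates 1 and 2.

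CSE1L, which returns importin-alpha to the cytoplasm after import, showed the largest difference among the exportins. Its level was 41.6 and 48.6 FPKM in the controls and 403.9 and 456.7 FPKM in the biotin libraries. No other exportin came near these biotin values. The means were 45.1 ± 4.95 and 430.3 ± 37.3 FPKM, a ratio of 9.55. The log2 difference was 3.23 ± 0.20 (SE), and 19 tested genes had a larger one. Of its 3 transcript rows only NM_001316, of 3627 bases on chromosome 20 from 49046246 to 49096960, was above 0; NM_001256135 and NR_045796 were listed at 0 in every library. The reads behind NM_001316 were estimated at 2411 and 3134 for control replicates 1 and 2, and at 25699 and 39118 for biotin replicates 1 and 2.

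XPO6, the export receptor of actin with profilin, was also higher in both biotin libraries. It stood at 12.2 and 13.99 FPKM in the controls and at 24.6 and 27.1 FPKM in the biotin libraries. The groups did not overlap, and the ratio of means, 1.97, was below those of CSE1L and XPO5. The log2 difference was 0.93 ± 0.18 (SE), with 8.58% of tested genes above it. All of it came from NM_015171, on chromosome 16 from 28097976 to 28211918, while the row NM_001270940 was listed at 0 throughout.

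The other exportins were not higher in both biotin libraries. XPO1, or CRM1, exports proteins with a leucine-rich signal as well as several classes of RNA. It was at 25.3 and 29.2 FPKM in the controls and at 20.9 and 23.4 FPKM in the biotin libraries, a log2 difference of -0.29 ± 0.18 (SE). XPOT, the exporter of tRNA, was at 14.4 and 19.4 FPKM in the controls and at 9.70 and 10.7 FPKM in the biotin libraries. Its log2 difference was -0.67 ± 0.20 (SE), the lowest of the family, and 8.64% of tested genes lay lower. XPO4, which exports the translation factor eIF5A, was at 4.80 and 4.99 FPKM in the controls and at 3.73 and 4.10 FPKM in the biotin libraries (-0.26 ± 0.14 on the log2 scale). In XPO1, XPOT and XPO4 both biotin values were below both control values. XPO7, a receptor with a broad set of protein cargoes, was at 3.75 and 3.62 FPKM in the controls and at 2.78 and 4.51 FPKM in the biotin libraries. Here the groups overlapped, and the biotin replicates differed by 1.62-fold, the widest replicate ratio in the family.

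**Figure D1:**
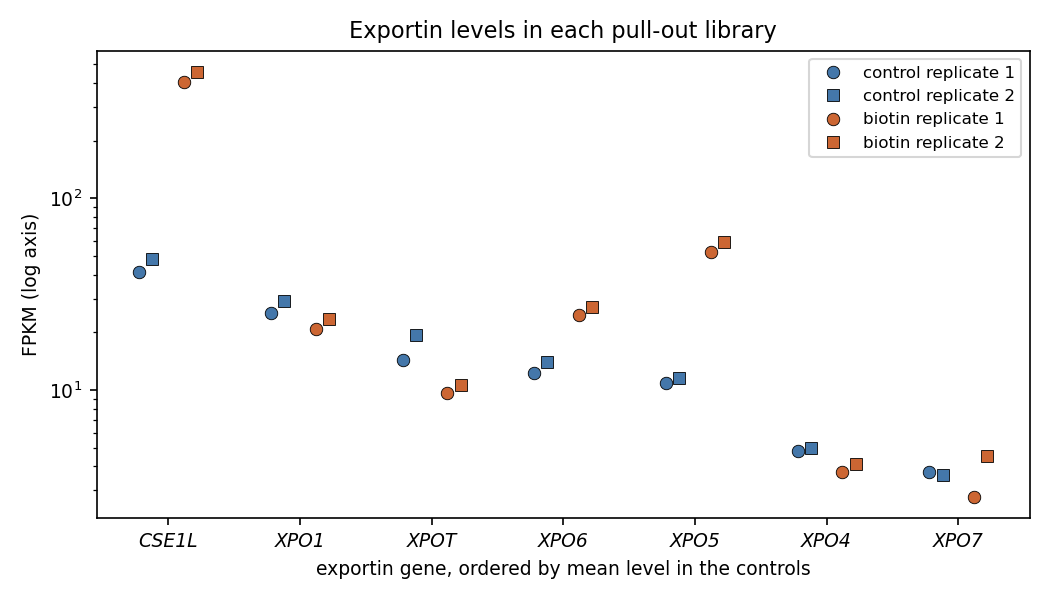
FPKM of each exportin (log axis) in the 4 libraries, with genes ordered by their mean in the controls; circles are replicate 1, squares replicate 2, blue control and orange biotin. The biotin points of CSE1L (403.9 and 456.7), XPO5 (52.4 and 59.3) and XPO6 (24.6 and 27.1) lie above their controls, those of XPO1, XPOT and XPO4 slightly below, and those of XPO7 on both sides.

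In all, 3 of 7 exportins were called higher and 0 lower in the fit over all genes, beside 13.2% and 9.31% of all tested genes, and 4 were not called. Both biotin values exceeded both controls in 3 exportins and fell below them in 3, beside 29.4% and 37.7% of all tested genes. The family was chosen with this contrast in view, so nothing is read from these counts. The median log2 difference of the 7 exportins, -0.04, is the value of XPO7 and stands beside -0.06 over all tested genes. With a library left out, the log2 difference of XPO6 lay between 0.84 and 1.02, and XPO6 was then not counted among the calls. XPOT was counted as lower with upper-quartile scaling (log2 difference -0.75), quantile scaling (-0.75), a higher filter (mean FPKM 5 or more; -0.67), and the midpoints of the deposited confidence intervals in place of FPKM (-0.755).

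**Figure D2:**
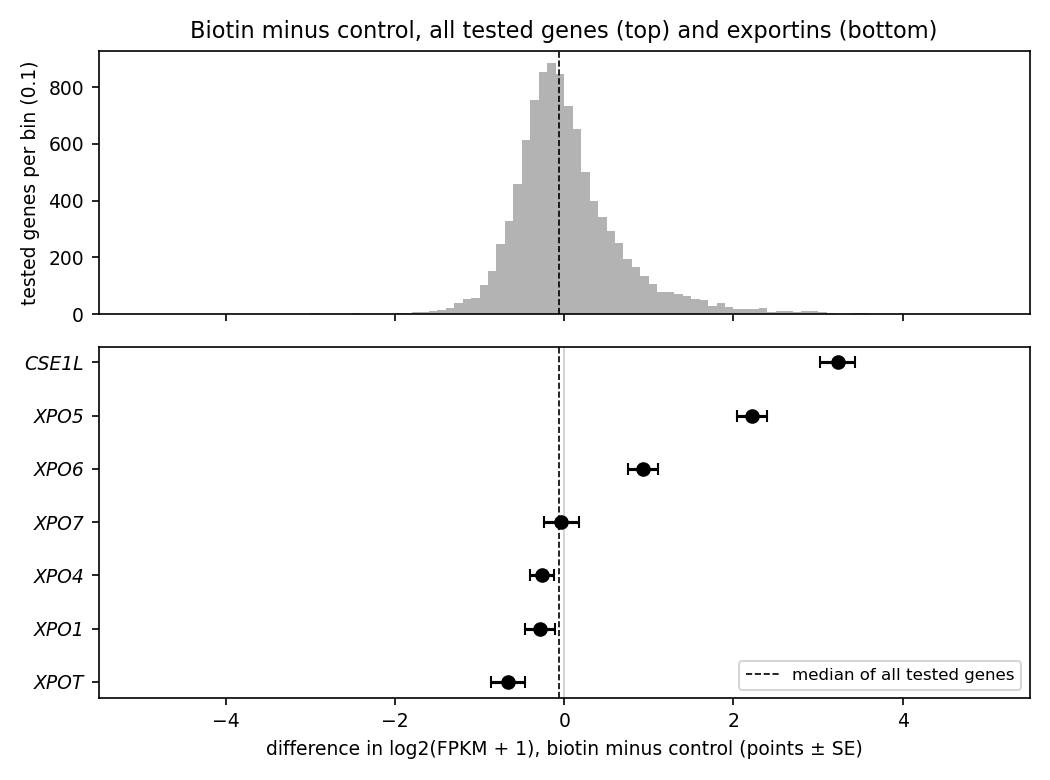
Difference in log2(FPKM + 1) between biotin and control libraries: the upper panel counts all 9934 tested genes in bins of 0.1, the lower panel gives each exportin with its standard error from limma, and the dashed line is the median of all tested genes (-0.06). CSE1L (3.23) and XPO5 (2.22) lie in the right tail. XPO6 has 8.58% of tested genes above it and XPOT has 8.64% below it. XPO7, XPO4 and XPO1 lie within the bulk.

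FPKM is scaled to transcript length, so the levels of the exportins in the libraries are set side by side here. Abundance in the cell and recovery on the beads cannot be told apart in this order. The FPKM of XPO1, XPOT and XPO7 also lay below the deposited intervals described next. In the controls the order of mean FPKM was CSE1L (45.1), XPO1 (27.3), XPOT (16.9), XPO6 (13.1), XPO5 (11.2), XPO4 (4.89) and XPO7 (3.68), and no pair of neighbours in that order overlapped. In the biotin libraries it was CSE1L (430.3), XPO5 (55.8), XPO6 (25.9), XPO1 (22.2), XPOT (10.2), XPO4 (3.91) and XPO7 (3.65), and only XPO4 and XPO7 overlapped. XPO5 thus went from position 5 to position 2, and XPO1 from position 2 to position 4, although XPO1 comes to position 3 in the biotin libraries by the interval midpoints given with the intervals. CSE1L made up 36.8% and 37.0% of the summed exportin FPKM in the controls and 78.0% in each biotin library. The share of XPO5 was 9.60% and 8.79% in the controls and 10.1% in each biotin library, since the sum itself went from 112.9 and 131.4 to 518.0 and 585.7 FPKM. Without CSE1L and XPO5 the remaining 5 genes summed to 60.5 and 71.3 FPKM in the controls and to 61.8 and 69.8 FPKM in the biotin libraries, ranges that overlap. CSE1L and XPO5 had the largest differences, so nothing is read from this overlap. Within the sum, XPO6 was higher in both biotin libraries and XPO1, XPOT and XPO4 were lower in both.

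The deposited tables also give a confidence interval for each FPKM, and for some exportins the FPKM lay outside its own interval. XPO1, XPOT and XPO7 were below their intervals in all 4 libraries. In control replicate 1, XPO1 was listed at 25.3 FPKM with an interval of 38.6 to 42.7, and XPO7 at 3.75 with an interval of 8.17 to 10.2. XPO4 and XPO6 lay inside theirs in every library, and XPO5 and CSE1L were outside in 1 library each, by less than 1 FPKM. Over all rows of tested genes with an FPKM of at least 1, 29.9% to 32.4% lay outside per library. The level at which these intervals were set is not given in the sources used here, and the cause was not tested. With the midpoint of the interval in place of FPKM, XPO5 differed by 2.13 and CSE1L by 3.24 on the log2 scale, and XPO1 by -0.08 instead of -0.29. The order of levels also changed. By midpoints, XPO1 (38.6 and 41.8) lay above XPO6 (24.65 and 27.1) in the biotin libraries, at position 3. In the controls, CSE1L (41.8 and 48.6) overlapped XPO1 (40.6 and 44.4), and XPO6 (12.2 and 13.99) overlapped XPO5 (11.6 and 12.5). XPO7, at 7.71 to 10.3, lay above XPO4, at 4.02 to 5.13, in every library. XPO5 was at position 5 in the controls and 2 in the biotin libraries by either measure.

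**Figure D3:**
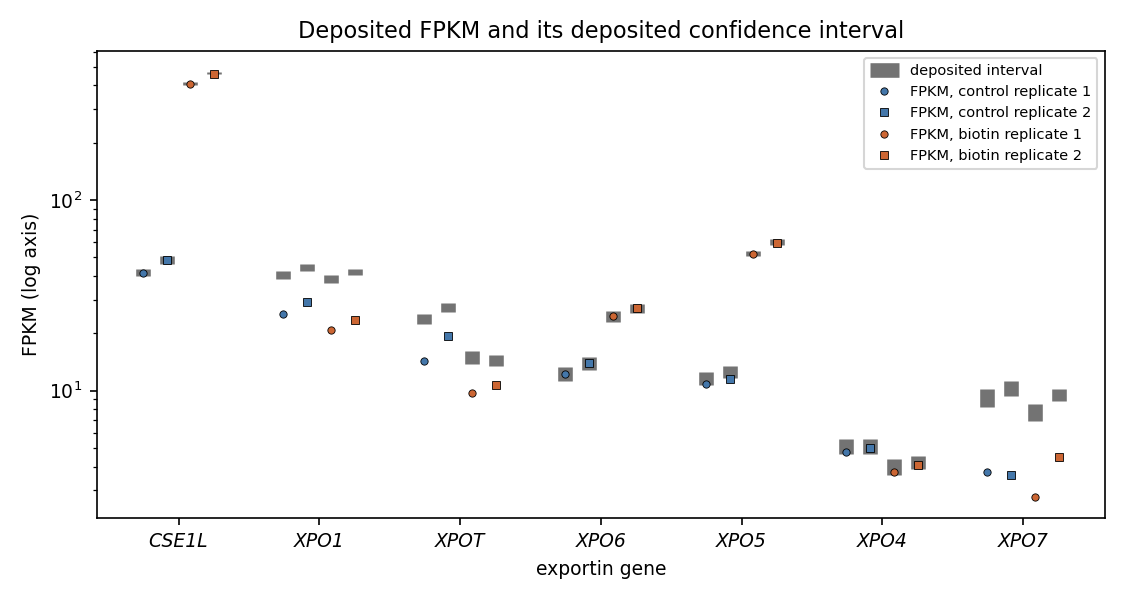
Deposited FPKM (points) and deposited confidence interval (grey bars) of each exportin in the 4 libraries, on a log axis, with colours and shapes by group and replicate. The points of XPO1, XPOT and XPO7 lie below their bars in all 4 libraries, while those of XPO4 and XPO6 lie on theirs.

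Genes beside the exportins were examined because the kit keeps the strand but whether the authors' counting used it is not given in the sources used here, so reads that run past an annotated end cannot be told apart from those of a close neighbour. None of these neighbours overlaps the exportin in the deposited rows. Longer transcripts in other annotations were not searched for. XPO5 has a neighbour within 1 kb on each side. POLH, a translesion DNA polymerase, starts 65 bases away and was at 1.38 and 1.80 FPKM in the controls and at 0.991 and 1.54 FPKM in the biotin libraries. POLR1C, a subunit of RNA polymerases I and III, ends 821 bases away and was at 8.40 and 7.27 FPKM in the controls and at 4.39 and 6.03 FPKM in the biotin libraries. Neither passed the test (log2 differences -0.20 ± 0.18 and -0.52 ± 0.19, SE; limma adjusted p = 0.459 and 0.0939). No biotin value of either gene exceeded its higher control value, unlike XPO5. CSE1L has 1 such neighbour, the divergent noncoding transcript gene CSE1L-DT, whose rows end 189 bases before it. CSE1L-DT was listed at 0 in both controls and at 1.11 and 1.98 FPKM in the biotin libraries. It passed the filter only through its biotin values, so no test is given for it. No other exportin had a row of another gene within 1 kb.

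**Figure D4:**
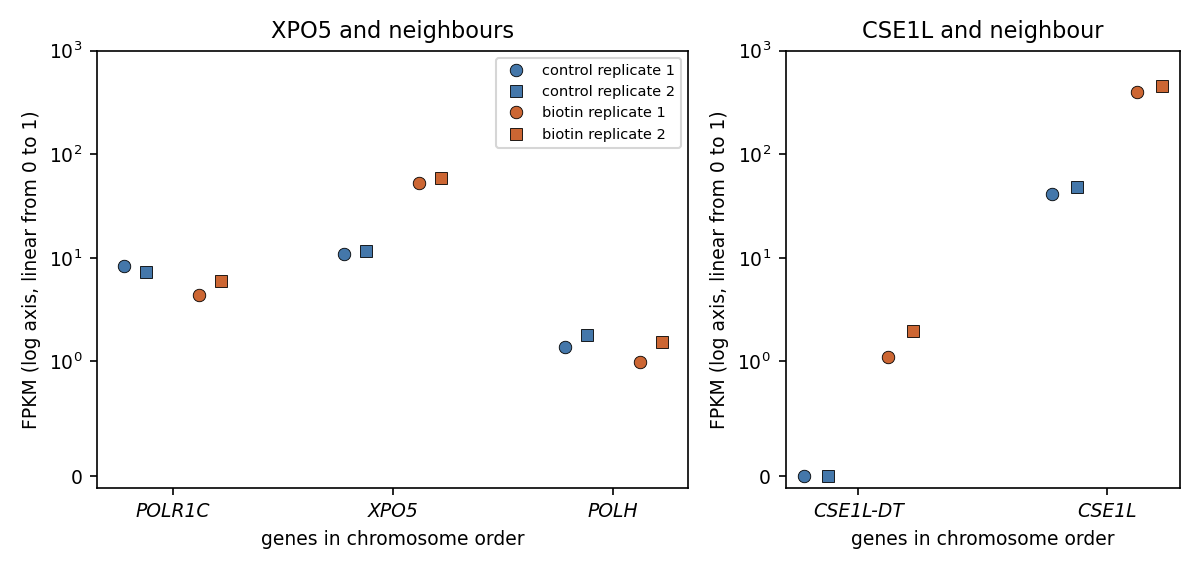
FPKM of XPO5 with POLR1C and POLH (left) and of CSE1L with CSE1L-DT (right) in the 4 libraries, on an axis that is linear from 0 to 1 and logarithmic above. XPO5 and CSE1L are higher in biotin, POLR1C and POLH are not, and CSE1L-DT is listed at 0 in both controls.

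MiRNAs usually bind mRNAs through sites in the 3′ untranslated region (3′ UTR) that pair with the seed. The site for miR-26a is TACTTGA, complementary to nucleotides 2 to 8, and was searched on the sense strand of GENCODE 29 transcripts. It was present in the 3′ UTR of 11.9% of 9320 searched genes. Of the exportins, XPO4 and XPOT had 1 such site each, and XPO5, CSE1L, XPO6, XPO1 and XPO7 had 0. XPO4 and XPOT were lower in both biotin libraries, but so was XPO1 without the site. None of these genes was called in the fit over all genes. The genes with 0 sites included those higher in biotin, XPO1, and XPO7, whose groups overlapped. The 3′ UTR of XPO4 is long, at 6393 bases, and its site is followed by A, the 8-base form that 5.4% of searched 3′ UTRs hold. The 3′ UTR of XPOT spans 2996 bases in GENCODE, but the deposited row ended 2444 bases earlier, before the site at base 1239 of the 3′ UTR. The 2 sites are shown on the transcript strand, with the complement of the seed, and in XPO4 the following A, in capitals.
XPO4 3′ UTR: tgacctggtaaagcTACTTGAActggtaga
XPOT 3′ UTR: tttttattcatggcTACTTGAgaaagcaa

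Shorter matches to nucleotides 2 to 7 of miR-26a, ACTTGA, were present in the coding sequence of XPO5, XPO6 and XPO1 (1 each), CSE1L (2) and XPO7 (3), and not in that of XPO4 or XPOT. Of searched genes, 26.3% had such a match in the coding sequence and 34.3% in the 3′ UTR. Among exportins only XPO4 and XPOT had it in the 3′ UTR (5 each, the longer site included). All of those in XPOT lie beyond the end of the deposited row, at base 552 of the 3′ UTR. The longest stretch complementary to any part of miR-26a was 8 bases in XPO5, as in CSE1L, XPO1, XPO4 and XPO7. Of searched transcripts, 47% had 1 at least as long. In CSE1L the stretch paired with nucleotides 3 to 10 and lay in the 3′ UTR, at base 3466 of the transcript. In XPO5 the stretch paired with nucleotides 10 to 17 and lay in the coding sequence, at base 419 of the transcript. XPO1 had the same 8 bases as XPO5 in its coding sequence, at base 3616. The FPKM of XPO1 was lower in both biotin libraries than in both controls, but XPO1 was not called. The stretches of XPO5 and XPO1 are shown in capitals, as are the 6-base coding matches of the exportins higher in biotin and of XPO1.
XPO5 complementary stretch: ggccttcagATCCTGGAacacgttgt
XPO1 complementary stretch: catcattaaATCCTGGAaatccagtt
XPO5 coding match: ctcagcctttgtcaACTTGAacaatatt
CSE1L coding match, first: tatttaaagaaaacACTTGAtcctgatc
CSE1L coding match, second: agccaacatagtgcACTTGAtgcttagc
XPO6 coding match: ctgctccctgagagACTTGAgctccctg
XPO1 coding match: aacagtacaagaacACTTGAtagaaaag

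Other genes of nuclear transport and of the RNAs that exportins carry were taken from 8 fixed lists with 123 genes, of which 116 were tested. Of these, 8 rose (6.9%) and 10 fell (8.62%) by limma over all genes, beside 13.2% and 9.31% of all tested genes. Their median log2 difference was -0.16. None of the 116 rose by as much as XPO5, beside 1.3% of all tested genes, and the largest increase was 1.37. XPO5 was chosen for its rise, so nothing is read from this count. Few of the calls in these lists held when a library was left out.

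Import receptors of the importin-beta family, the closest relatives of the exportins, fell in 2 and rose in 0 of 13 tested members, with a median of -0.08. Of all tested genes, 9.31% were called lower and 13.2% higher. The counts of each list here stand beside these shares and were not tested against them. IPO5, which imports ribosomal proteins and histones, went from 17.9 ± 2.29 to 11.1 ± 0.979 FPKM (log2 difference -0.64 ± 0.18, SE; limma adjusted p = 0.0498). IPO11 went from 5.49 ± 0.330 to 3.48 ± 0.0760 FPKM (-0.53 ± 0.14; limma adjusted p = 0.0422). Among importin-alpha adaptors, the cargo that CSE1L exports, 1 of 6 tested rose and 0 fell. It was KPNA5, from 1.14 ± 0.219 to 2.50 ± 0.762 FPKM (0.70 ± 0.19; limma adjusted p = 0.0489), with 1 control under the filter, at 0.985 FPKM. Of the Ran cycle genes, which give transport its direction, 1 of 8 tested fell and 0 rose: RANGRF, which binds Ran and releases its nucleotide, by 1.27 on the log2 scale. All 4 lost their call in at least 3 of 4 fits with a library left out.

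Nucleoporins, the subunits of the pore, rose in 2 and fell in 3 of 30 tested members, beside 13.2% and 9.31% of all tested genes. NUP214, a docking site of XPO1 on the cytoplasmic face of the pore, rose from 6.62 ± 0.0471 to 18.0 ± 2.31 FPKM (1.31 ± 0.17; limma adjusted p = 0.00522). NUP88, its partner in the same subcomplex, fell from 9.54 ± 0.116 to 4.71 ± 0.298 FPKM (-0.89 ± 0.15; limma adjusted p = 0.0119). The scaffold nucleoporin NUP155 rose by 0.77 ± 0.17 and the membrane nucleoporin NDC1 fell by 0.68 on the log2 scale. In bulk mRNA export, which does not use an exportin, 3 of 19 tested genes rose and 3 fell, beside the same shares. MCM3AP, the scaffold of the TREX-2 complex, rose by 1.22 ± 0.18, and ZC3H11A and THOC6, both tied to the TREX complex, by 0.98 ± 0.16 and 0.90 ± 0.19. THOC7, a TREX subunit, fell by 1.09 on the log2 scale. Adaptors and cofactors of XPO1 held 0 calls among 7 tested genes in limma, and at an unadjusted p below 0.05 they held 0 higher and 1 lower, beside 19.5% and 19.8% of all tested genes. The 2 most abundant of them were NCBP2 of the cap-binding complex, with means of 9.66 ± 0.166 FPKM in the controls and 9.26 ± 0.123 FPKM in the biotin libraries, and RANBP3, with 7.71 ± 1.06 and 7.57 ± 1.26 FPKM. Of the nucleoporins and mRNA export genes named here, each passed in at most 2 of the 4 leave-one-out fits.

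Genes acting on miRNA precursors before and after XPO5 were called in 1 of 18 tested cases (0 higher), beside 22.5% of all tested genes. That call was lost whichever library was left out. Genes of tRNA processing, whose product XPOT exports, rose in 2 and fell in 0 of 16 tested cases. Over all tested genes these shares were 13.2% and 9.31%. POP1, a protein of RNase P and RNase MRP, was at 0.994 and 0.927 FPKM in the controls and at 3.89 and 4.22 FPKM in the biotin libraries (log2 difference 1.37 ± 0.14). Both controls were under the filter, which POP1 passed only through its biotin values, so its call is no support. TSEN54, a subunit of the tRNA splicing endonuclease, rose by 0.73 ± 0.17 and passed in 0 of the 4 leave-one-out fits. The median log2 difference was -0.20 in the miRNA precursor list, beside 2.22 for XPO5, and -0.33 in the tRNA list, beside -0.67 for XPOT.

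**Figure D5:**
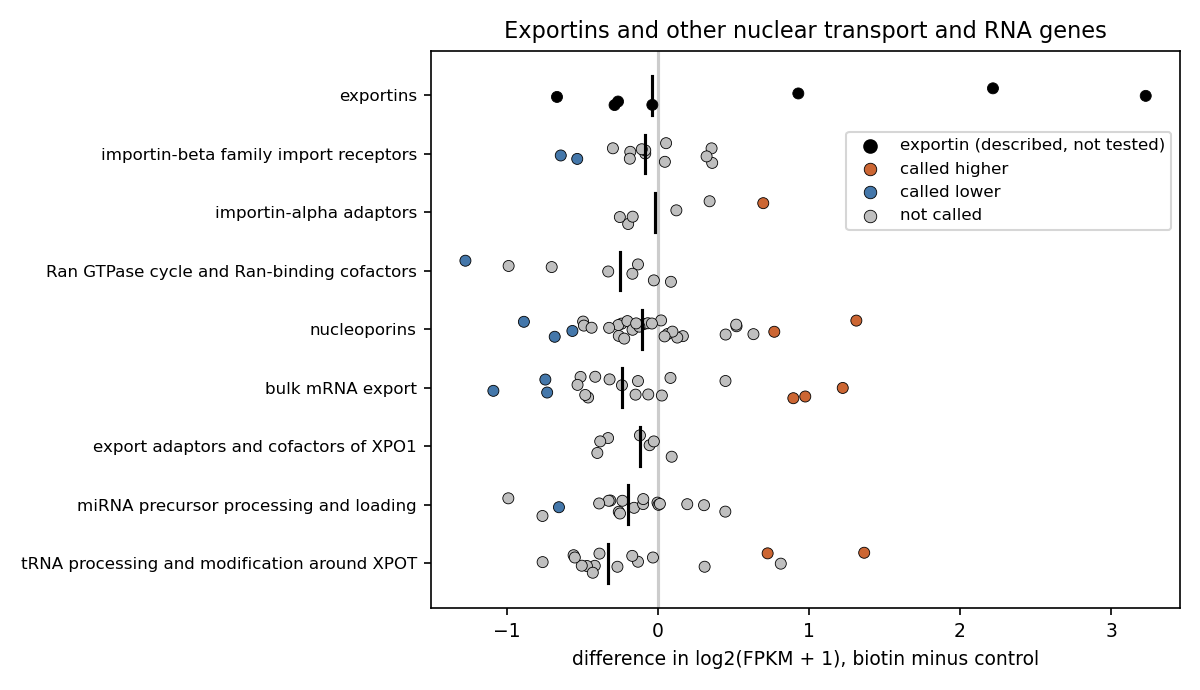
Difference in log2(FPKM + 1), biotin minus control, of each exportin (black) and of each tested gene in 8 lists of nuclear transport and RNA genes, with orange for genes called higher, blue for lower, grey for not called, and a bar at each median. CSE1L (3.23) and XPO5 (2.22) lie to the right of every listed gene, the farthest of which is at 1.37.

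The tested genes whose levels were most like those of XPO5 were found by Euclidean distance of log2(FPKM + 1) over the 4 libraries. They were MAT2B, a regulatory subunit of methionine adenosyltransferase (distance 0.147), the hyaluronan receptor gene CD44 (0.241), the peptidase gene APEH (0.353), FNDC10 (0.465) and SGPL1, the sphingosine phosphate lyase (0.470). MAT2B, for example, was at 11.5 and 12.1 FPKM in the controls and at 52.6 and 55.0 FPKM in the biotin libraries. The nearest to CSE1L, the most abundant exportin, were SHMT2 (0.592), MPV17 (0.663), SLC7A5 (0.752), SEC23A (0.922) and ANXA1 (0.989). SHMT2, a mitochondrial enzyme of folate metabolism, was at 28.9 and 42.5 FPKM in the controls and at 389.4 and 389.2 FPKM in the biotin libraries. Over 4 libraries, this likeness rests on the level and the difference between groups.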

How the data were processed

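RNA recovered on streptavidin was compared between 2 control and 2 biotin libraries. The submitters' processing notes name Cufflinks 2.1.1, Cuffdiff, TopHat2 2.0.9, FastQC 0.10.1 and cutadapt, and the build hg38; how each was set, with which annotation and whether by strand is not given in the sources used here. The authors deposited 53209 transcript rows per library with FPKM, and per the file headers a confidence interval on the same scale, the transcript length and the coverage signal, used here with the read length of 50 bases to estimate reads. Estimated reads are no counts, so no counting intervals are given.

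Of 46699 RefSeq accessions, 98.6% were given a symbol (RefSeq table GRCh38.p14, then GENCODE 29), and all rows of a gene were summed. Short structured RNA genes and the 22 genes with a failed or excess-data row were left out of the tests. limma 3.58.1 in R 4.3.3 (variance trend; 2 residual and 4.2 prior degrees of freedom) was fitted to log2(FPKM + 1) over all genes reaching FPKM 1 in 2 or more libraries. Tests were two-sided and adjusted by Benjamini-Hochberg, with a threshold of 0.05. Adding 1 makes differences of low genes look smaller. With 2 libraries per group, calls and the printed SEs rest largely on the pooled spread. The fit was also run on simulated data with known differences, whose spread depended only on the level of a gene. That run does not show how often calls in the real data are false.

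Named were all exportins, genes within 1 kb of them, the 5 nearest in level to XPO5 and to CSE1L, and up to 4 called genes per list, or the 2 most abundant where a list had no call. Members and lists were chosen with earlier results of these data known. The search for longest complementary stretches and the use of interval midpoints were added after seeing the data. Alternatives were other pseudocounts, filters, scalings, no variance trend, single transcripts, a replicate block and each library left out. Some genes and sequences covered by these rules are not reported here.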

Additional observations from a re-analysis of the deposited data

How the results depend on the processing

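The log2 difference of XPO5 was 2.22, and lay between 2.13 and 2.31 with a library left out and at 1.91 with a pseudocount of 5. The count of exportins called higher, a description only, was 3, and 2 with single transcripts or a library left out, where XPO6 differed by 0.84 to 1.02. Exportins called lower went from 0 to 1, XPOT, with a mean FPKM of at least 5, upper-quartile scaling, quantile scaling and interval midpoints (1 each). Without a filter 653 genes were higher and 231 lower, with single transcripts 336 and 142, and the replicate block gave 534 lower. With a library left out, 193 to 680 genes were higher and 32 to 227 lower, the fewest without control replicate 1; such a fit assumes that the lone library varies like the others. Genes of the pathway lists numbered 8 higher and 10 lower. They were 5 and 1 without a filter, 3 and 0 with single transcripts, 4 and 6 with the replicate block, and 1 to 5 and 0 to 2 with a library left out. Of them 21 were lower with upper-quartile scaling, 18 with quantile scaling and 17 with interval midpoints. The 2 exportins with a seed site in the 3′ UTR became 1, XPO4, for the 8-base form and within the deposited rows. The causes were not tested. The differences between replicates 1 and 2 correlated at 0.003 between groups across genes. No replicate effect shared across genes was thus seen, but this does not tell whether the libraries were prepared in pairs.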
